A study of Mus musculus with 6 samples.

Results

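Polyamines (putrescine, spermidine and spermine) are small positively charged molecules that bind nucleic acids and are needed for growth. This account covers 8 genes that make them or set how much is made, namely Odc1, Amd1, Srm, Sms, Sat1, Oaz1, Oaz2 and Azin1. They were chosen by symbol, and both they and the wider lists below were chosen with earlier results of these data known. Of these 8 genes, 7 had a row among the 17485 genes of the count files, and all 7 passed the filter on low counts that left 12755 genes for testing. Amd1, the decarboxylase that supplies aminopropyl groups for spermidine and spermine, was not analysed here.

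Polyamine synthesis starts with ornithine decarboxylase (Odc1), which makes putrescine. Spermidine synthase (Srm) and spermine synthase (Sms) then add aminopropyl groups, and spermidine/spermine acetyltransferase (Sat1) marks polyamines for export or oxidation. Antizymes (Oaz1, Oaz2) bind the ornithine decarboxylase monomer, send it to the proteasome without ubiquitin and block polyamine uptake, while the antizyme inhibitor (Azin1), an enzyme-like relative of ornithine decarboxylase without its activity, binds antizyme and frees the enzyme. Polyamines themselves promote the ribosomal frameshift that antizyme synthesis requires, which closes a feedback loop that runs through translation. In mouse embryonic stem cells Amd1 is known to sustain self-renewal.

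The cells were E14 mouse embryonic stem cells of 129/Ola background, kept in serum with leukaemia inhibitory factor on gelatin. From 24 h after seeding they were given cycloheximide, which stops translation elongation, for 3 h or for 6 h; its dose was 250 µg/mL, with 0.007% ethanol as vehicle. Control cells had ethanol alone for 9 h, at a percentage that is not given in the sources used here. The length of exposure and the drug cannot be told apart. Each of the 3 groups had 2 libraries of polyadenylated RNA, 6 in all. All come from 1 cell line, and nothing in the labels says that the 2 libraries of a group came from separate cultures, so p-values measure the spread between libraries, which may be technical.

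Library totals ran from 9385447 to 27351079 counts, highest at 6 h. Mitochondrially encoded genes took 24.7 to 24.9% of counts in control, 18.9 to 19.6% at 3 h and 16.6 to 17.4% at 6 h. All 10 pluripotency markers listed had counts in every library, with a summed level of 6075 to 6245 CPM (each count as a share of its library, on the usual CPM scale, with library sizes adjusted by TMM, the trimmed mean of log ratios) in control, 7307 to 7602 CPM at 3 h and 5051 to 5093 CPM at 6 h. Sox2 held 2282 and 2602 CPM of that sum in control, 3849 and 3958 CPM at 3 h and 2338 and 2377 CPM at 6 h. At 3 h 6 of the 10 markers had a log2 fold change below 0. There edgeR called 2 higher and 1 lower, beside 4.90% of all tested genes called in either direction. By 6 h all 10 lay below 0 and 4 were called lower, beside 14.3% of all tested genes. The 5 fibroblast feeder markers with a row, of 7 listed, summed to 3.07 to 10.1 CPM. The 8 markers of differentiated lineages summed to 65.7 to 130 CPM, of which Sox1 held 57.9 to 113 CPM. Of these 8 markers 7 were tested. At 3 h and at 6 h 0 of them were called, beside 4.90% and 29.0% of all tested genes. Their median log2 fold change was 1.12 at 3 h, with 1 of the 7 below 0, and 0.92 at 6 h, with 2 below 0. Over all tested genes the medians were 0.02 and 0.04. What part these shifts had in the results below was not tested. Scaling mattered. With library size alone in place of TMM the median log2 fold change of all genes moved from 0.02 to 0.25 at 3 h and from 0.04 to 0.40 at 6 h, and the share of called genes that were higher moved from 73.4% to 95.9% and from 50.8% to 88.2%; between 6 h and 3 h it moved from 27.8% to 56.5%. Changes below are on the TMM scale, that is, relative to most other transcripts.

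The frameshift site of the 2 antizyme transcripts is shown because the feedback by polyamines acts there, through translation, which the drug stops. Each line gives 30 bases around the site, 5′ to 3′, on the plus strand of mm10 (GRCm38), from GENCODE M21 transcripts. The Oaz2 bases come from transcripts that the annotation does not label as protein coding. Capitals mark the codon before the first stop codon and that stop codon, where the ribosome must slip by 1 base for full-length antizyme to be made.
Oaz1 (chr10:80828280-80828309): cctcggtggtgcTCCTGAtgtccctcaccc
Oaz2 (chr9:65686257-65686286): cctctgtggtgcTCCTGAtgcccctcaccc

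The windows were identical at 28 of 30 bases. In both genes 1 coding model of the annotation skips a gap of 4 bases at this place, which is how the annotation keeps the reading frame open.

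All 3 synthesis enzymes measured fell by 6 h of cycloheximide, and none passed the edgeR test at 3 h; with library size alone the 6 h values stayed below 0 and did not pass. Odc1 (chromosome 12, 17544794 to 17551505), the first enzyme of the pathway, stood at 503 and 453 CPM in the control libraries; 3 h libraries gave 364 and 368 CPM, and 6 h libraries 337 and 334 CPM. Every treated library lay below both controls, and both 6 h libraries lay below both 3 h libraries. At 6 h Odc1 fell 1.43-fold, a log2 fold change of -0.51 ± 0.10 (SE; edgeR quasi-likelihood test, Benjamini-Hochberg adjusted p = 0.00763). At 3 h the log2 fold change was -0.39 ± 0.10 (SE), with an adjusted p of 0.0647 in edgeR that did not pass 0.05. DESeq2 called the 3 h change (log2 fold change -0.41, adjusted p = 0.0055), and so did edgeR without a filter on low counts (adjusted p = 0.0283). Of the 6 fits that each left out 1 library, 5 kept the 6 h call; without 6 h replicate 2 the log2 fold change was -0.51 and the edgeR adjusted p 0.0566.

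**Figure D1:**
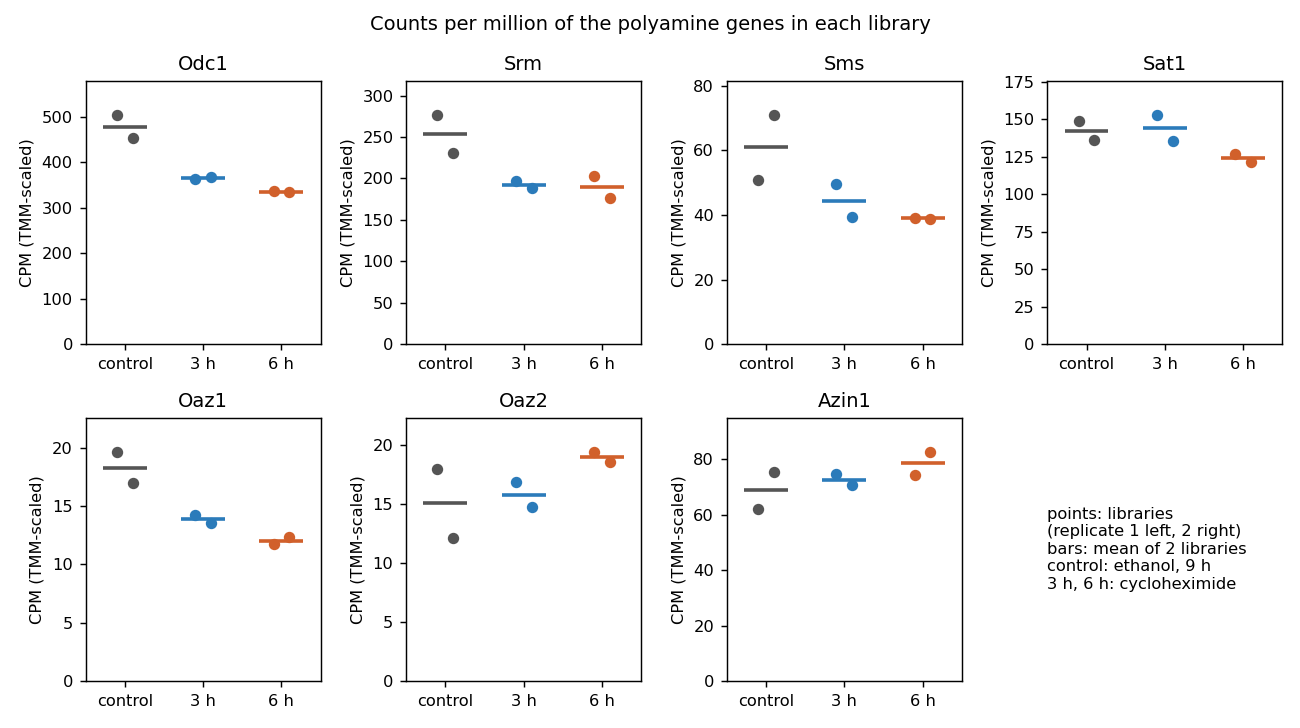
TMM-scaled CPM (y axis, from 0, a separate scale for each gene) of the 7 genes in each library by group (x axis); points are libraries and bars the mean of 2 libraries. Odc1 drops from 503 and 453 CPM in control to 337 and 334 CPM at 6 h, while the Azin1 libraries of the 3 groups overlap.

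Srm (chromosome 4, 148591503 to 148594993), which turns putrescine into spermidine, read 276 and 231 CPM in the controls, 197 and 189 CPM at 3 h and 202 and 176 CPM at 6 h. The treated libraries lay below both controls, and the 3 h and 6 h libraries overlapped. Srm fell 1.34-fold at 6 h (log2 fold change -0.42 ± 0.13 (SE), edgeR adjusted p = 0.0375) after a 3 h value of nearly the same size that did not pass (-0.40 ± 0.13 (SE), edgeR adjusted p = 0.104). Its 6 h call was lost without control replicate 1 (log2 fold change -0.29), without either 3 h library and without either 6 h library, and was kept only without control replicate 2.

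Sms (chromosome X, 157443855 to 157492287), which turns spermidine into spermine, had the widest control spread of the 3 enzymes relative to its mean, at 51.0 and 70.9 CPM. It read 49.5 and 39.4 CPM at 3 h and 39.1 and 38.9 CPM at 6 h, so that the lower control library lay close to the higher 3 h library. Sms fell 1.56-fold at 6 h (log2 fold change -0.64 ± 0.19 (SE), edgeR adjusted p = 0.0336). Without control replicate 2 that value was -0.38 and the call was lost (edgeR adjusted p = 0.156), as it was without either 6 h library. The annotation holds a copy by name, Sms-ps, and how reads shared with copies were counted is not given in the sources used here.

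Sat1 (chromosome X, 155213132 to 155216449), the enzyme of polyamine breakdown and export, gave 149 and 136 CPM in the controls, 153 and 136 CPM at 3 h and 127 and 121 CPM at 6 h. Control and 3 h libraries overlapped, and the 6 h libraries lay below all others by a small margin. No change passed the test, with log2 fold changes of 0.02 (95% interval -0.25 to 0.28) at 3 h and -0.20 (-0.47 to 0.07) at 6 h (edgeR adjusted p = 0.956 and 0.24). With library size alone the 6 h value turned to 0.16.

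The antizymes gave different readings. Oaz1 (chromosome 10, 80826656 to 80829290) had only 139 to 355 counts per library. Its level was 19.6 and 17.0 CPM in the controls, 14.3 and 13.6 CPM in the 3 h libraries and 11.7 and 12.3 CPM in the 6 h libraries. The groups did not overlap in any comparison. Oaz1 fell 1.53-fold at 6 h (log2 fold change -0.61 ± 0.18 (SE), edgeR adjusted p = 0.0326), and its 3 h value of -0.40 ± 0.18 (SE) did not pass (edgeR adjusted p = 0.21). Like Srm, it kept its 6 h call only without control replicate 2 among the 6 fits with a library left out, with values from -0.70 to -0.50.

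Oaz2 (chromosome 9, 65668001 to 65690300), with 99 to 588 counts per library, read 18.0 and 12.1 CPM in control, 16.9 and 14.7 CPM at 3 h and 19.4 and 18.6 CPM at 6 h. The 3 h libraries lay between the controls, and the 6 h libraries just above the higher control. Its log2 fold changes were 0.05 ± 0.22 (SE; 95% interval -0.44 to 0.55) at 3 h and 0.32 ± 0.21 (SE; -0.17 to 0.81) at 6 h, and neither passed (edgeR adjusted p = 0.907 and 0.294). The 6 h value rested on the controls: it was 0.65 without control replicate 1 (edgeR adjusted p = 0.0575) and 0.08 without control replicate 2. Whether the response of Oaz1 differs from that of Oaz2 was not tested. The annotation places the microRNA gene Mir1982 inside Oaz1. Each antizyme gene has a copy by name, Oaz1-ps and Oaz2-ps, and the doubt about shared reads raised for Sms applies to both.

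Azin1 (chromosome 15, 38487427 to 38519266), the inhibitor that competes with ornithine decarboxylase for antizyme, read 62.0 and 75.6 CPM in control, 74.7 and 70.8 CPM at 3 h and 74.5 and 82.7 CPM at 6 h. Control and treated libraries overlapped at both times. The antisense gene Gm49077 overlaps Azin1, and whether counting used strand is not given in the sources used here. The log2 fold change was 0.08 (95% interval -0.24 to 0.41) at 3 h and 0.19 (-0.13 to 0.52) at 6 h (edgeR adjusted p = 0.764 and 0.334). The 6 h interval leaves room for a rise as large as the fall of Odc1, and the 6 h value was 0.05 without control replicate 1, 0.34 without control replicate 2 and 0.12 without 6 h replicate 2.

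Counted together, 0 of the 7 genes were called at 3 h by edgeR, against 4.90% of all tested genes. An unadjusted p under 0.05 was seen for 3 of the 7, beside 3149 of all 12755 tested genes. DESeq2 called 2 (Odc1 and Srm), beside 1437 of all tested genes, and limma-voom 0, beside 445. At 6 h 4 of the 7 were called, all lower (Odc1, Srm, Sms and Oaz1), where 29.0% of all tested genes were called, 14.3% lower and 14.8% higher. DESeq2 and limma-voom also called 4 of the 7, beside 3932 and 3619 of all tested genes. The median log2 fold change of the 7 was -0.39 at 3 h and -0.42 at 6 h, beside 0.02 and 0.04 over all tested genes. Both comparisons use the same control libraries. Between 6 h and 3 h edgeR called 0 of the 7, against 1.64% of all tested genes. An unadjusted p under 0.05 was seen for 0 of the 7, beside 2315 of all tested genes. DESeq2 and limma-voom also called 0, beside 667 and 508 of all tested genes. The log2 differences ran from -0.21 for Sat1 to 0.27 for Oaz2. Full separation of the libraries was seen for 4 of the 7 genes at 3 h (53.2% of all tested genes), 6 at 6 h (66.8%) and 5 between 6 h and 3 h (54.1%). In bulk libraries fewer cells of a kind and less RNA per cell cannot be told apart.

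**Figure D2:**
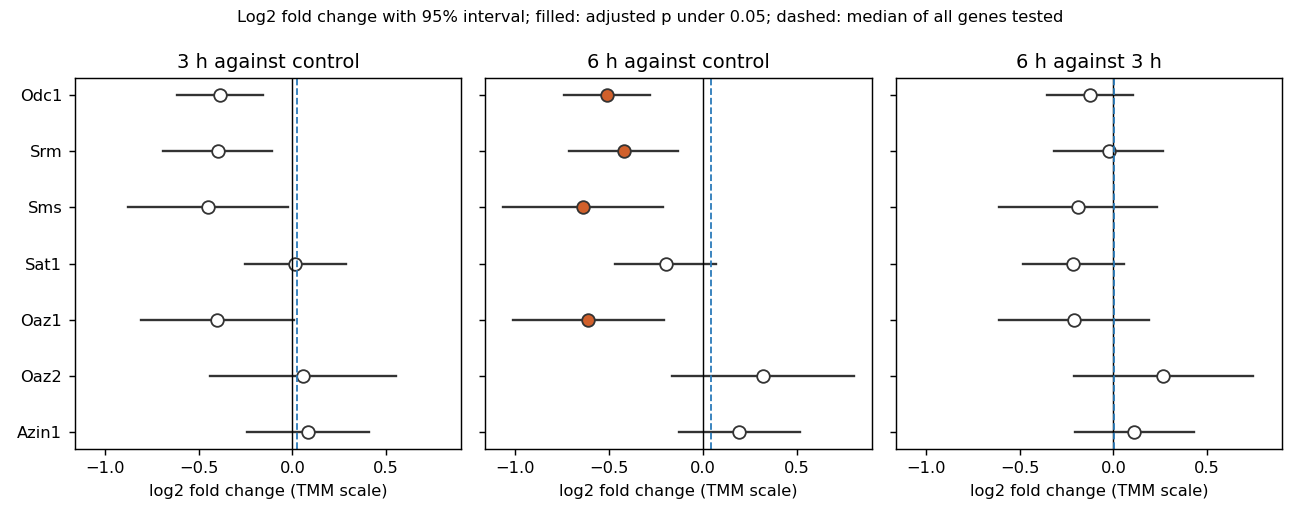
Log2 fold change on the TMM scale (x axis) of each gene (y axis) in the 3 comparisons, with the 95% interval of the edgeR fit; filled points have an adjusted p under 0.05 and the dashed line is the median of all tested genes. At 6 h Odc1, Srm, Sms and Oaz1 are filled, at -0.51, -0.42, -0.64 and -0.61, and no point is filled in the other comparisons.

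These calls depended on how libraries were scaled. With library size alone, the 6 h log2 fold changes were -0.16 for Odc1, -0.07 for Srm, -0.28 for Sms and -0.25 for Oaz1, and none of the 4 was called, while Azin1 at 0.55 (edgeR adjusted p = 0.0189) and Oaz2 at 0.68 (edgeR adjusted p = 0.0407) were called higher. The median gene stood at 0.40 on that scale, where 3679 of all 12755 tested genes were called higher and 494 lower. Relative to that median the values were -0.55 for Odc1, -0.47 for Srm, -0.68 for Sms, -0.65 for Oaz1, 0.15 for Azin1 and 0.28 for Oaz2. The 2 scales differ in where no change lies, and hardly in the distance of these genes from the median gene. The shift in mitochondrial share given above moved with the groups. With mitochondrial genes removed before scaling the same number, 4 of the 7, was called at 6 h. That removal left 12735 of the 12755 tested genes and a median log2 fold change of 0.04, so under TMM it could change little. What part the shift in share had was not tested.

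**Figure D3:**
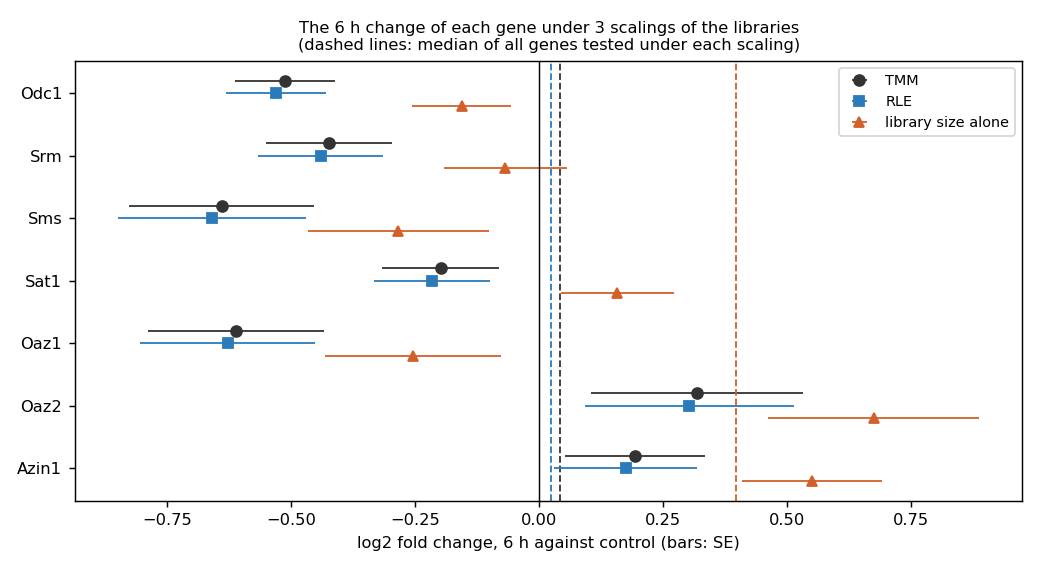
Log2 fold change at 6 h against control (x axis, bars are the SE) of each gene (y axis) under TMM, RLE (median-of-ratios size factors) and library size alone; dashed lines mark the median of all tested genes under each. Library size alone shifts every gene upward together with the median, which moves from 0.04 to 0.40.

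Ratios between 2 genes within a library do not depend on scaling, so they show which members moved relative to each other; only their change is read, since counts were not divided by transcript length. In control libraries the ratio of Azin1 to Odc1 counts was 0.123 and 0.167; it came to 0.205 and 0.192 at 3 h, and 6 h libraries gave 0.221 and 0.248. It was higher in every treated library than in both controls, and higher in both 6 h than in both 3 h libraries. The ratio of Azin1 to Oaz1 counts behaved alike, with 3.16 and 4.45 for the controls, 5.23 and 5.22 for 3 h and 6.36 and 6.70 for 6 h. For Azin1 to Oaz2 the groups overlapped, with 3.44 and 6.25 in the controls, 4.43 and 4.81 for 3 h and 3.84 and 4.46 for 6 h. The ratios of Azin1 to Odc1 and to Oaz1 were thus higher in treated libraries, and that to Oaz2 was not. On the TMM scale Odc1 and Oaz1 were called lower at 6 h, and Azin1 was not called.

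The ratio of Odc1 to Oaz1 counts, enzyme to antizyme, stayed between 25.5 and 28.8 in all 6 libraries; control and 3 h values overlapped, and both 6 h values lay just above both controls. Srm to Odc1 lay between 0.51 and 0.601, also with overlap. For Sat1 to Odc1 the controls gave 0.295 and 0.301, below 0.419 and 0.368 (3 h) and 0.377 and 0.364 (6 h). The share of Oaz2 relative to Oaz1 went from 0.917 and 0.712 in control to 1.66 and 1.503 at 6 h. Sms to Srm overlapped between all groups, from 0.185 to 0.307. No test was run on these ratios.

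**Figure D4:**
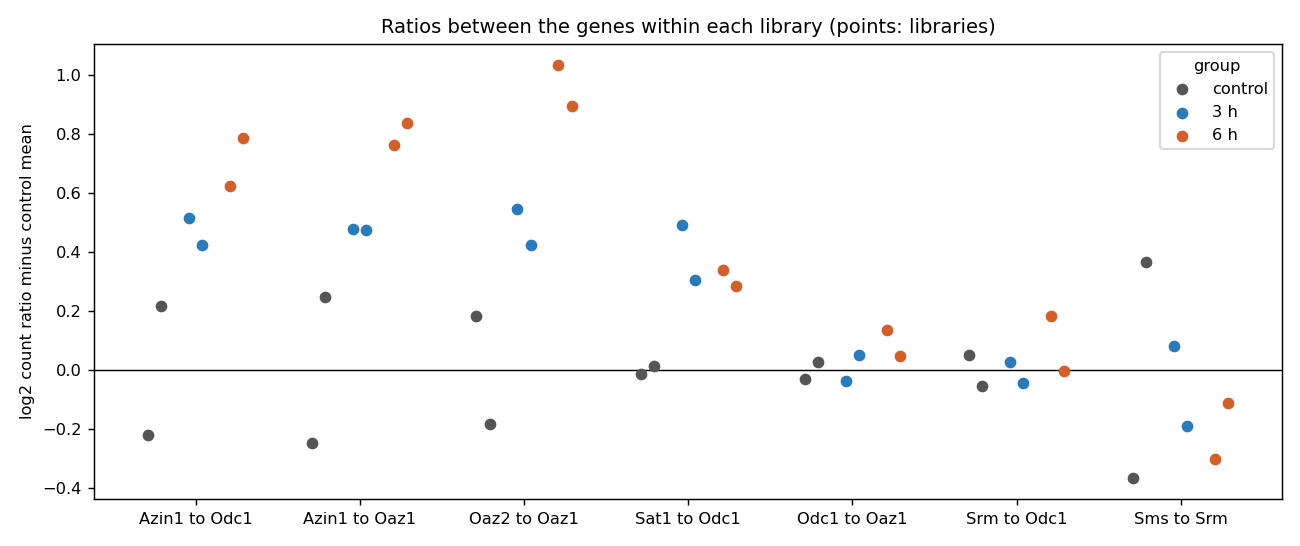
Log2 ratio of the counts of 2 genes in each library minus the control mean of that log2 ratio (y axis) for 7 pairs of genes (x axis); points are libraries, coloured by group. Azin1 to Odc1 reaches 0.62 and 0.79 at 6 h, whereas Odc1 to Oaz1 stays between -0.04 and 0.14 in all libraries.

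The promoters of Odc1 and Oaz1 are shown because the ratio of these 2 transcripts varied least among the pairs, and to let their sequence be compared. RefSeq windows of 300 bases (GRCm38.p6) were found for 6 of the 8 genes. Printed are the bases upstream of the annotated gene, plus strand, and matches on either strand to any of 5 motifs are in capitals. The motifs were the GC box, with letters GGGCGG, the CCAAT box, searched by the letters of its name, and the TATA box, with letters TATAAA. Also searched were the E-box CACGTG, which MYC and its relatives bind, and the cyclic AMP response element TGACGTCA.
Odc1 (chr12:17544623-17544793): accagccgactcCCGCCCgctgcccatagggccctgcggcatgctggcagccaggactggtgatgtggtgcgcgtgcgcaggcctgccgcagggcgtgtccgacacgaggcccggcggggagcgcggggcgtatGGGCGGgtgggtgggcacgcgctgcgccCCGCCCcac
Oaz1 (chr10:80826406-80826655): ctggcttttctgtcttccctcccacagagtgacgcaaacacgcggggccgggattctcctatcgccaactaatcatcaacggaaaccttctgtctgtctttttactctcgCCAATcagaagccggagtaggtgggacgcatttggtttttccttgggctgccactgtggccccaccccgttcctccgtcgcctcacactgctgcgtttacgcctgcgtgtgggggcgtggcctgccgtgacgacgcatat

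The Odc1 stretch of 171 bases held 3 GC boxes and was 77.2% G or C. The Oaz1 stretch, longer at 250 bases, held 1 CCAAT box, 0 GC boxes and was 58% G or C. In the full windows, GC boxes were found for Odc1, Oaz2, Amd1, Sat1 and 1 of the 2 Sms windows. Oaz1 had a TATA box that reaches into the bases after its start, and the other Sms window an E-box. A CCAAT box was found for Oaz1 and for that other Sms window. Of all 32851 windows, 35.7% held a GC box, 37.4% a CCAAT box, 13.6% a TATA box, 7.15% an E-box and 1.79% a cyclic AMP response element. A match describes letters and is not a binding site.

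Genes outside the family with the most similar profile over the 6 libraries were sought by distance between log2 CPM profiles after subtracting each gene's mean, among 5295 genes with a mean of at least 20 CPM. For Odc1 they were Wdr12, a ribosome biogenesis factor (distance 0.07), Hnrnpab, an RNA-binding protein (0.08), and Rab2a, a small GTPase of the secretory pathway (0.09). For Azin1 they were Zfp330 (0.07), Adprh (0.10) and Trappc6b (0.10). Oaz1 lay below the level limit and had no such search.

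The wider pathway was read from a list of 30 genes for paralogs, oxidases, eIF5A and its hypusine enzymes, ornithine supply, S-adenosylmethionine supply with methylthioadenosine salvage, and transport. Of these, 26 had a row and 21 were tested. At 3 h 0 were called by edgeR, and 6 had an unadjusted p under 0.05, beside 3149 of all 12755 tested genes. DESeq2 called 2 of the 21, beside 1437 of all tested genes, and limma-voom 1, beside 445. At 6 h 7 were called, 6 lower and 1 higher, a share of 7 in 21 beside 29.0% of all tested genes, and their median log2 fold change was -0.32. With library size alone 1 of the 21 was called lower and 4 higher, beside 494 lower and 3679 higher of all 12755 tested genes.

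Eif5a, the translation factor that carries the spermidine-derived residue hypusine, read 5098 and 5250 CPM in control, 4158 and 3577 CPM at 3 h and 3544 and 3171 CPM at 6 h. The groups did not overlap, and it fell at 6 h by 0.62 ± 0.10 (SE) on the log2 scale (edgeR adjusted p = 0.0041). With library size alone the value was -0.27 and the call was lost (edgeR adjusted p = 0.0622). The other genes of that step, Eif5a2, Dhps and Dohh, were not called. Dhps, the first hypusine enzyme, read 20.9 and 13.7 CPM in control and 22.2 and 25.6 CPM at 6 h (edgeR adjusted p = 0.154).

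Mat2a, which makes S-adenosylmethionine, the substrate of Amd1, had the largest 6 h change among the 21 tested genes. It read 781 and 453 CPM in control, 494 and 541 CPM at 3 h and 173 and 173 CPM at 6 h. The 3 h libraries lay between the controls, and both 6 h libraries lay far below every other library. It fell 3.57-fold at 6 h (log2 fold change -1.84 ± 0.22 (SE), edgeR adjusted p = 0.0011) and was called in the direct comparison of 6 h with 3 h (-1.58 ± 0.22 (SE), edgeR adjusted p = 0.0135). The first call held in every alternative fit, library size alone included; the second was lost when either 3 h or either 6 h library was left out.

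Methylthioadenosine salvage recycles the by-product of the synthases. Of the 8 tested genes of S-adenosylmethionine supply and this salvage, 4 were called lower at 6 h and 1 higher. Of all tested genes 14.3% were called lower and 14.8% higher. The log2 fold change was below 0 for 7 of the 8, beside 6086 of all 12755 tested genes. Ahcy, which clears S-adenosylhomocysteine, went from 150 and 165 CPM to 102 and 99.7 CPM (log2 fold change -0.65, edgeR adjusted p = 0.0046). Apip and Adi1, both salvage enzymes, had log2 fold changes of -0.58 and -0.49 (edgeR adjusted p = 0.0292 and 0.0362). Enoph1, the enzyme between them, rose from 83.7 and 80.4 CPM to 119 and 98.0 CPM (log2 fold change 0.40, edgeR adjusted p = 0.0491), and this call was lost with RLE factors, with limma-voom, with the replicate number as a block, with only the groups compared and without any 1 of the 6 libraries. Mtap, which opens the salvage route, was not called (-0.32, edgeR adjusted p = 0.087). With library size alone Ahcy, Apip and Adi1 were lower by values that did not pass, -0.29, -0.23 and -0.14. With only the groups compared Adi1 did not pass (log2 fold change -0.49, edgeR adjusted p = 0.0502). The calls of Apip and Adi1 were also lost without control replicate 1 or 6 h replicate 2, that of Apip without 6 h replicate 1, and that of Adi1 without control replicate 2 or 3 h replicate 1.

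Among transport genes, Atp13a3, a pump of the polyamine uptake system, was the 1 called of 4 tested. It read 93.3 and 144 CPM in control and 72.0 and 72.5 CPM at 6 h, a log2 fold change of -0.71 ± 0.19 (SE; edgeR adjusted p = 0.0245). Without control replicate 2 it was -0.37 and not called (edgeR adjusted p = 0.103), and the call was also lost without either 6 h library and with library size alone (-0.35). Slc3a2 stayed at 765 to 912 CPM in all libraries. Neither of the oxidases was called: Smox had a 6 h log2 fold change of -0.03 and Paox of -0.07 (edgeR adjusted p = 0.948 and 0.788). Of the ornithine supply genes, Oat and Aldh18a1 were tested and not called. The paralogs were scarce: Azin2, listed under its older symbol Adc, had 5 to 17 counts per library and was not called, and Oaz3 and Satl1 were below the filter.

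**Figure D5:**
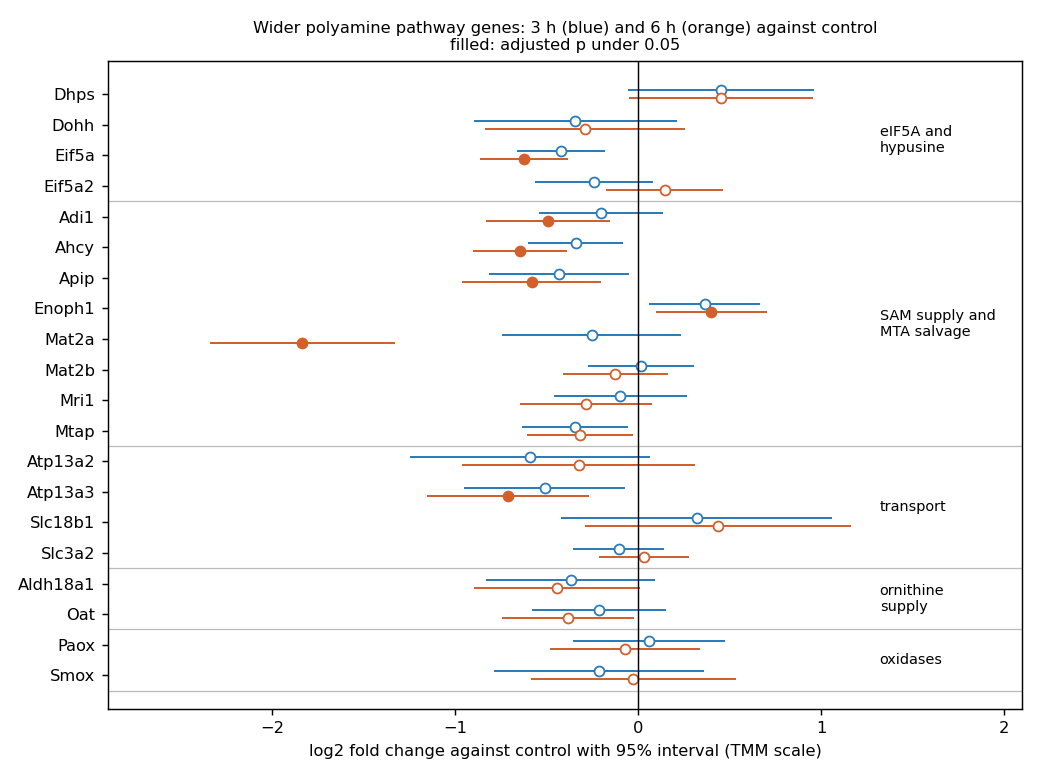
Log2 fold change against control on the TMM scale (x axis) of the tested genes of the wider pathway except Azin2 (y axis, grouped by step) at 3 h (blue) and 6 h (orange), with the 95% interval of the edgeR fit; filled points have an adjusted p under 0.05. Mat2a at 6 h lies farthest from 0, at -1.84, and its 3 h value is -0.26.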

How the data were processed

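RNA was counted per gene in 6 libraries. The authors deposited whole-number counts, 1 file per library; per the submitters' processing notes the genome build was mm10. The aligner, counter, annotation and strandedness, and whether molecular identifiers were collapsed, are not given in the sources used here. Counts were filtered with filterByExpr (minimum count 10, total 15), scaled by TMM and fitted with edgeR 4.0.16 (R 4.3.3) by quasi-likelihood, with 1 mean per group over all 6 libraries and no replicate block. Two-sided p-values were adjusted by the Benjamini-Hochberg method over 12755 genes; a gene was called where the adjusted p was under 0.05. CPM values are TMM-scaled; intervals are 95% intervals of the fit. The SE is the log2 fold change divided by the root of the F statistic. Alternatives were RLE factors, library size alone, 2 other filters, DESeq2 1.42.0, limma-voom 3.58.1, the replicate number as a block, only the groups compared, removal of mitochondrial genes and leaving out each library. A count of 3 is the detection floor, 0.0989 to 0.366 CPM, covering counting error only. Named genes were the members, the called genes of the wider lists (and some uncalled ones chosen after their values were seen), and the 3 nearest profiles for Odc1 and Azin1. Members and lists were chosen with earlier results of these data known. Azin2 was matched to Adc through RefSeq synonyms.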

Additional observations from a re-analysis of the deposited data

How the results depend on the processing

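The count of genes called at 3 h (625) was 1373 with library size alone, 1816 with no filter, 1437 in DESeq2, 218 with only the groups compared, and 108 to 1033 with 1 library left out. At 6 h 3703 were called, and 1312 to 3578 with 1 library left out. Between 6 h and 3 h, 209 were called; the count was 1063 with no filter, 667 in DESeq2, 508 in limma-voom, 563 with only the groups compared, 126 with the replicate block, and 14 to 595 with 1 library left out. The cause of these differences was not tested. Same-numbered libraries deviated together between control and 3 h (correlation 0.30 over 5472 genes), and not for the other pairs of groups (-0.08 and -0.01). With 2 libraries per group this cannot show whether the numbers pair the samples. With the replicate block 0, 4 and 0 of the 7 polyamine genes were called at 3 h, at 6 h and between 6 h and 3 h. Of these 7, 2 were called at 3 h with no filter and 2 in DESeq2; at 6 h 2 were called with library size alone (others than in the main fit), 2 with only the groups compared, and 0 to 3 with 1 library left out. Over all tested genes, 4173 were called at 6 h with library size alone and 3201 with only the groups compared. Signs changed only for values that were not called. Sat1 at 3 h was -0.0064 with RLE factors and -0.0070 in DESeq2, and at 6 h 0.16 with library size alone; between 6 h and 3 h Odc1 was 0.0029 and Srm 0.10 with library size alone. With 1 library left out, Azin1 at 3 h ran from -0.060 to 0.23, Oaz2 from -0.19 to 0.38 and Sat1 from -0.075 to 0.10, and Srm between 6 h and 3 h from -0.13 to 0.072. Oaz1 and Oaz2, with 99 to 588 counts per library, carry the most counting error.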
